A study of Mus musculus with 8 samples.

Results

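The genes described here encode splicing factors and heterogeneous nuclear ribonucleoproteins (hnRNPs). They were the 106 protein-coding genes, of 21938 on the assembled mouse chromosomes, whose symbols begin with Srsf, Snrp, Sf3a, Sf3b, Hnrnp, U2af, Prpf or Rbm and follow the usual form of these families, with Snrpn left out. ASH2L belongs to the core that all KMT2 enzymes need for efficient methylation of histone H3 at lysine 4. The trimethylated form is a mark of active promoters and the monomethylated form of active enhancers. Its sites were mapped by chromatin immunoprecipitation and sequencing (ChIP-seq) in immortalised mouse embryo fibroblasts, called iMEF cells. The 8 libraries formed 4 groups of 2 replicates, namely ASH2L precipitates from untreated cells, ASH2L precipitates from cells given dTAG for 1 h, and the inputs of both. All 4 groups carried the same alleles. Exon 4 of both floxed Ash2l alleles had been deleted through Cre-ER, and human ASH2L, fused at its N-terminus to the FKBP12F36V degradation tag and delivered by a lentivirus, took the place of the endogenous protein. The untreated libraries are labelled WT although these cells carry the fusion, and the lines were selected as individual clones. dTAG ties the tag to a ubiquitin ligase and thereby removes the fusion protein.

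The measurement was 1 list of 6444 ASH2L sites compiled over all samples, with a chromosome, start and end for each. The list holds no signal, score or read count for a sample, so it does not show the depth that each library reached, no value had a replicate error, and untreated and dTAG cells were not compared here. The labels give the antibody as Ash2l and the study's text as HA-selective, which would bind the tag of the fusion protein. Each gene was therefore scored for a promoter site, which is a site centred within 1 kb of any annotated transcription start site (TSS) of that gene. Positions refer to mm10 (GRCm38). Intervals given below are Wilson 95% intervals, which cover counting error over genes or sites only.

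Splicing is carried out by the spliceosome, which assembles on each intron from small nuclear ribonucleoproteins (snRNPs) and many associated proteins. The Sm proteins form the ring around most spliceosomal RNAs, SF3A and SF3B belong to the U2 snRNP that holds the branch point, and the Prpf proteins act mainly in the U4/U6.U5 tri-snRNP and in the later steps. SR proteins bind exons and mostly favour their inclusion, whereas many hnRNPs coat the nascent RNA and favour skipping. The Rbm symbols gather RNA-binding proteins of many functions, some in the spliceosome and some elsewhere.

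A promoter site was present at 54 of the 106 genes (50.9%, interval 41.6% to 60.3%), against 14.0% of all protein-coding genes and 19.0% of those with a CpG island at a TSS. hnRNP genes had the highest share, 14 of 20 (70.0%, 48.1% to 85.5%). Among the 4 main classes, SR protein genes followed with 6 of 11 (54.5%, 28.0% to 78.7%), snRNP protein genes with 10 of 20 (50.0%, 29.9% to 70.1%) and Rbm genes with 15 of 39 (38.5%, 24.9% to 54.1%). The Prpf genes had 9 of 13 (69.2%, 42.4% to 87.3%), while none of the 3 U2af genes (U2af1, U2af1l4, U2af2) had a site (interval 0% to 56.15%). The intervals of the 4 main classes overlapped one another, so the order of the classes is not resolved at these gene numbers. Each of them lay above the 14.0% of all protein-coding genes. The share was also high in other gene sets of basic RNA and protein synthesis, with 32 of 68 translation initiation and elongation factor genes (47.1%, 35.7% to 58.8%) and 17 of 43 RNA polymerase II and Mediator subunit genes (39.5%, 26.4% to 54.4%), and both intervals overlapped that of the splicing genes.

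**Figure D1:**
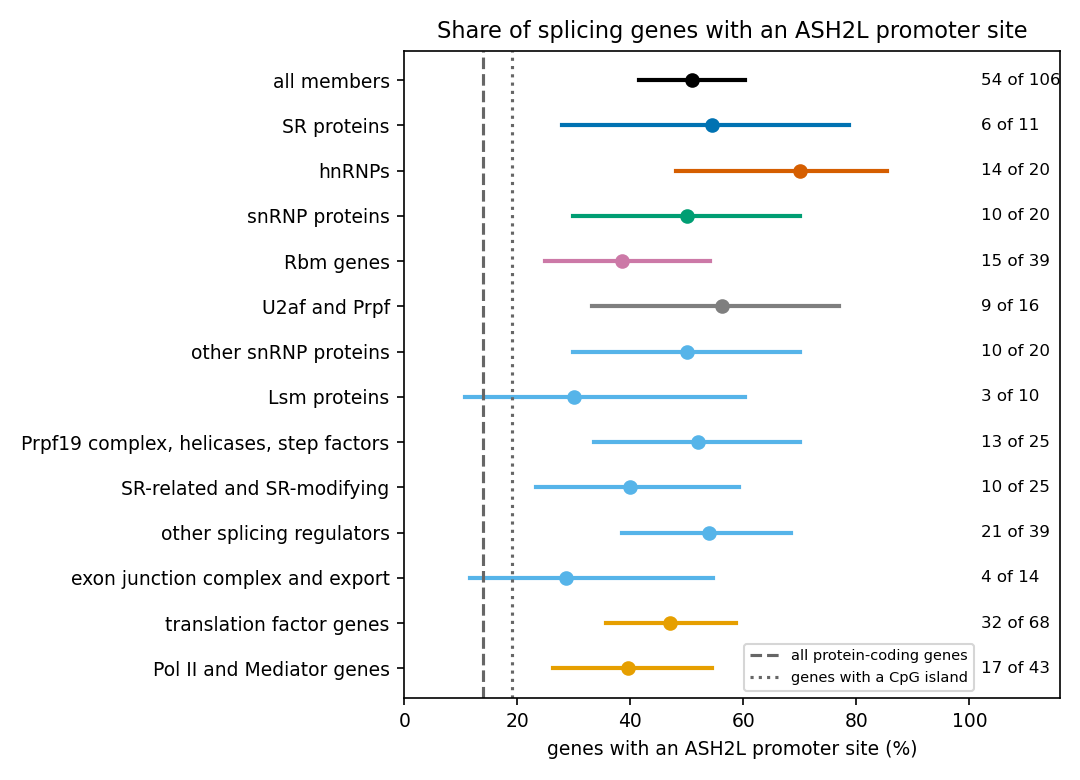
Share of genes with an ASH2L promoter site (%, horizontal axis) for all splicing genes, their classes, further splicing-related lists (light blue) and the sets of translation and transcription genes used for comparison (orange). Points are shares, lines Wilson 95% intervals, and the numbers at the right give genes with a site of all genes; the dashed and dotted vertical lines mark 14.0% and 19.0%. The hnRNP point, at 70.0%, is the farthest to the right, and the Lsm and exon junction lines alone reach the dashed line.

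The 54 genes held 64 distinct sites. A single site was found at 44 genes and 2 sites at 10 genes (18.5% of those with a site, against 14.8% for all protein-coding genes with one), and no gene had more. The list separated the genes cleanly, since no gene without a promoter site had a site between 1 and 3 kb from a TSS. The nearest miss was Rbm8a, which encodes the exon junction protein Y14, with a site centred 4433 bp away, and the median distance for the 52 genes without a promoter site was 112949 bp. At the inner edge, the sites farthest from a TSS were the upstream site of Hnrnpa0 (-890.5 bp) and the second site of Hnrnph3 (867.5 bp). Offsets are given from the site centre to the nearest TSS of the gene, negative when upstream. Another protein-coding gene had a TSS within 1 kb of 15 sites, and 11 genes shared every site they had in this way. Without these 11 genes, 43 of 95 had a site (45.3%, against 10.8% of all protein-coding genes treated alike).

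The hnRNP genes had the highest share within 1 kb of any TSS and the largest median width and offset of the classes. Within 500 bp of a TSS their share was 55% and that of the U2af and Prpf genes 56.2%, and with the gene start as the only TSS both were 50%. All 7 genes of the A/B and D families had a site, that is Hnrnpa0, Hnrnpa1, Hnrnpa2b1, Hnrnpa3, Hnrnpab, Hnrnpd and Hnrnpdl, whose products include the best known exon silencers. So did 3 of the 4 genes of the F/H family, Hnrnpf, Hnrnph1 and Hnrnph3, whose proteins bind runs of G, the exception being the X-linked Hnrnph2. Among the remaining genes, the poly-C binding protein gene Hnrnpk, the Hnrnpl paralogue Hnrnpll and the U-like genes Hnrnpul1 and Hnrnpul2 had a site. Hnrnpc, Hnrnpl, Hnrnpm, Hnrnpr and Hnrnpu had none. These subfamilies were formed after the sites had been seen and their counts are descriptions.

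The widest site of all 64 was at Hnrnpa0, an intronless gene, where 1260 bp at chr13:58127269-58128528 covered the coding exon with the centre 657.5 bp downstream of the TSS. A second Hnrnpa0 site of 204 bp lay upstream at chr13:58129345-58129548. Hnrnpa2b1 carried the next widest, 806 bp at chr6:51468884-51469689, centred 485.5 bp downstream in an exon of a non-coding transcript and in no coding exon. Hnrnpa3 followed with 753 bp at chr2:75659314-75660066, centred 372 bp downstream in an intron. The sequences below show the middle 150 bases of these sites, chosen because they lie in the gene body and in no annotated untranslated region, and capitals mark CpG dinucleotides, the target of DNA methylation that CpG islands retain.
Hnrnpa0, chr13:58127823-58127972, minus strand: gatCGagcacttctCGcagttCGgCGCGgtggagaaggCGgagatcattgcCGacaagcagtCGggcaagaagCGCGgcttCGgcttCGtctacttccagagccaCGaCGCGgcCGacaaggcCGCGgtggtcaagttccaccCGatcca
Hnrnpa2b1, chr6:51469211-51469360, minus strand: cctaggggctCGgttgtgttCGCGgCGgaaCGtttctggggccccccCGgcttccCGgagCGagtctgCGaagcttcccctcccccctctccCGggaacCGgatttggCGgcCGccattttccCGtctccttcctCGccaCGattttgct
Hnrnpa3, chr2:75659615-75659764, plus strand: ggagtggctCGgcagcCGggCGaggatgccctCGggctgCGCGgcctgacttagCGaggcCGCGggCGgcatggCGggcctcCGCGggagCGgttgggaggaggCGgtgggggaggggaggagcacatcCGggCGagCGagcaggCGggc
The Hnrnpa0 stretch, which is protein-coding, held 19 CpG dinucleotides, the Hnrnpa3 stretch 19 and the Hnrnpa2b1 stretch 16.

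At several hnRNP genes the site marked a TSS inside the annotated gene. Hnrnpf had sites of 326 bp (chr6:117906829-117907154, 142.5 bp downstream, in the 5′ UTR) and 252 bp (chr6:117907461-117907712, 737.5 bp downstream, in an intron), which were 6667.5 and 7262.5 bp from the most 5′ start of the gene. Hnrnph3 had sites of 511 bp (chr10:63023416-63023926, 176 bp downstream) and 700 bp (chr10:63022630-63023329, 867.5 bp downstream), both intronic, the second being 1237.5 bp from the gene start. The Hnrnpk site (566 bp, chr13:58401514-58402079) was centred 117.5 bp from the nearest TSS but 1546.5 bp from the gene start, the Hnrnpdl site (622 bp, chr5:100038270-100038891) 288.5 and 1083.5 bp, and the Hnrnph1 site (367 bp, chr11:50377843-50378209) 257 and 1036 bp. The centre of the Hnrnpdl site fell in what the annotation gives as the 3′ UTR of a shorter Hnrnpdl transcript. Hnrnpab carried adjoining intronic sites of 427 bp (chr11:51606385-51606811, 249 bp downstream) and 274 bp (chr11:51606042-51606315, 668.5 bp downstream). The hnRNP site closest to a TSS was that of Hnrnpul1 (271 bp, chr7:25754482-25754752), centred 84 bp downstream in the coding exon. Hnrnpa1 (500 bp, 227.5 bp downstream), Hnrnpll (393 bp, 512 bp) and Hnrnpul2 (349 bp, 191 bp) completed the downstream sites, whereas the Hnrnpd site (295 bp, -675 bp) lay upstream, at the TSS of 4930524J08Rik, and had the lowest GC content of all 64 sites (40.3%).

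Over the class, hnRNP sites had a median width of 410 bp and a median offset of 253 bp, against 290 bp and 91.3 bp for all splicing gene sites and 303 bp and 48.8 bp for sites of other protein-coding genes. The centre lay more than 200 bp downstream in 11 of 18 hnRNP sites (61.1%), which compares with 26.9% at other genes, and within 100 bp of the TSS in 1 of 18, which compares with 37.6%. By location the intronic sites were the largest hnRNP group, 9 of 18. Measured from the TSSs of coding transcripts only, the median hnRNP offset was 273 bp with 12 of 18 sites past 200 bp (other genes 34.2%), and from the gene start 633 bp with 15 of 18 (other genes 55%).

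**Figure D2:**
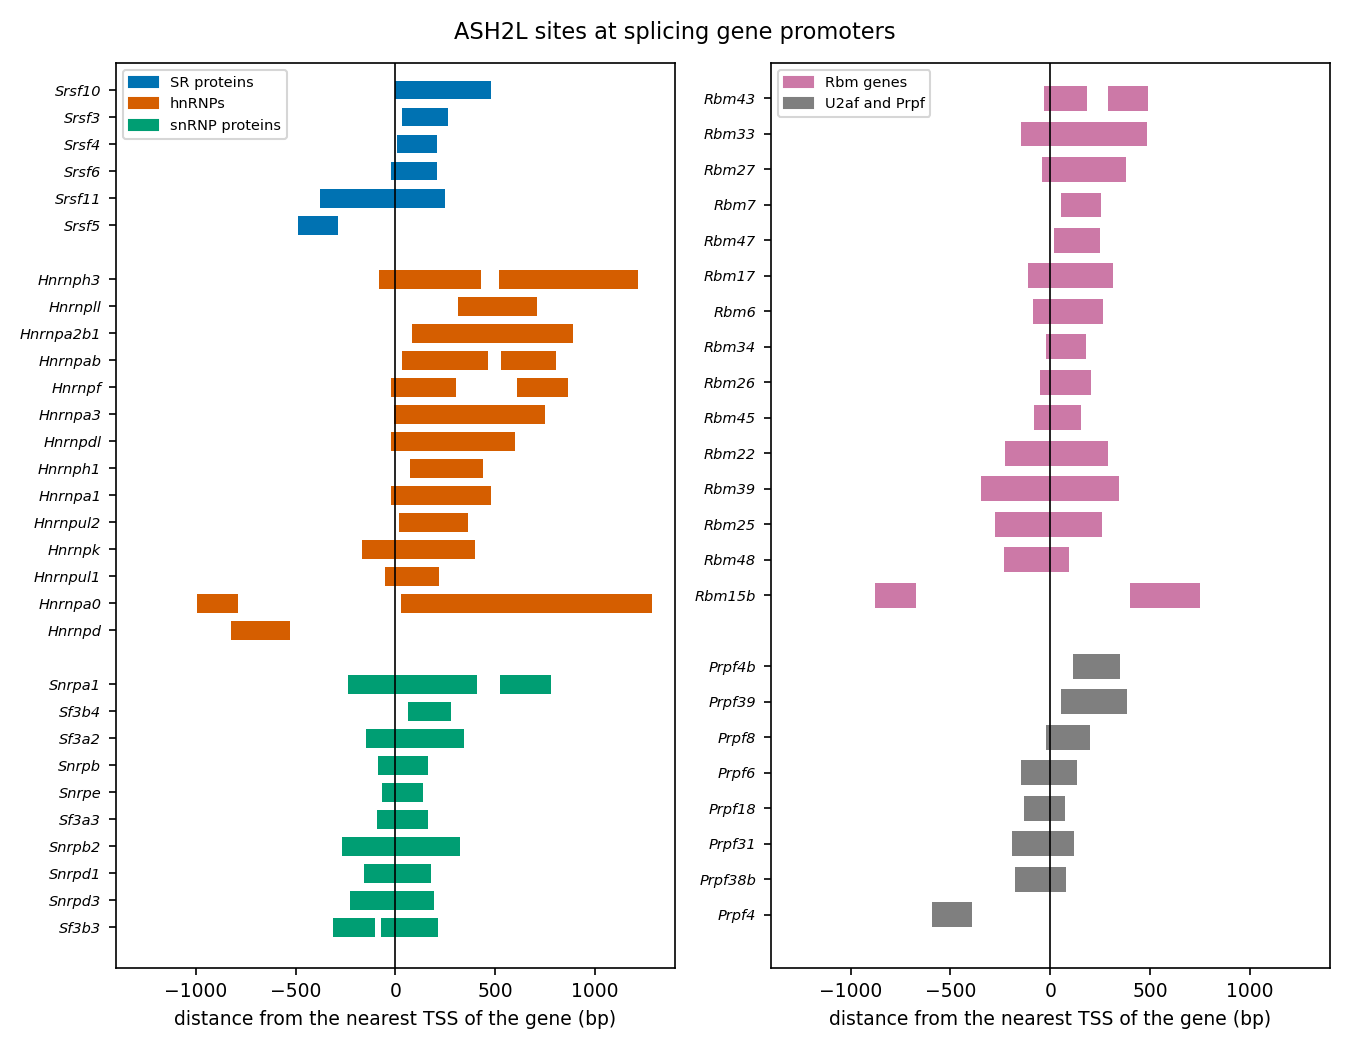
ASH2L sites (bars, drawn to width) at the genes with a promoter site that are named in the text, placed by distance in bp from the nearest TSS of the gene with transcription to the right, coloured by class and ordered within a class by median offset. Each site is placed by its own nearest TSS, so the 2 sites of Sf3a2, which belong to different TSSs, overlap in the drawing. The hnRNP bars extend to the right of the TSS, with Hnrnpd and the small Hnrnpa0 bar as upstream exceptions, and 10 of the 13 snRNP bars sit across it, the others being the second Snrpa1 bar, Sf3b4 and the upstream Sf3b3 bar.

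The sites of snRNP protein genes were narrower than those of hnRNP genes and mostly lay across the TSS. Of the 7 genes of the Sm ring, 4 had a site, namely Snrpb, Snrpd1, Snrpd3 and Snrpe, and Snrpd2, Snrpf and Snrpg had none. Both U2 snRNP genes with Snrp symbols, Snrpa1 and Snrpb2, had a site, and both such U1 genes, Snrpa and Snrpc, had none. Of the SF3A genes Sf3a2 and Sf3a3 had a site and Sf3a1 did not. In SF3B, which clamps the branch point, Sf3b3 and Sf3b4 had a site, while Sf3b1, Sf3b2, Sf3b5 and Sf3b6 had none. The centre was within 100 bp of the TSS in 10 of 13 snRNP sites (76.9%, other genes 37.6%) and more than 200 bp downstream in 1 of 13, and 10 of 13 spanned the TSS itself (other genes 53.3%), compared with 7 of 18 hnRNP sites. The median width was 254 bp (333 bp at Snrp genes and 235.5 bp at Sf3 genes) and the median offset 39.0 bp. With coding-transcript TSSs 7 of 13 lay within 100 bp (other genes 30.8%), and with the gene start 2 of 13 (other genes 17.8%).

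Closest to a TSS were the sites of Snrpd1 (333 bp, 11 bp downstream) and Snrpd3 (421 bp, chr10:75517786-75518206, centred at -18 bp and shared with the head-to-head gene Gucd1). Snrpb (249 bp), Snrpe (205 bp) and Sf3a3 (254 bp) had their centres 39, 37 and 35.5 bp downstream. Snrpa1 had the widest site, 648 bp at chr7:66060366-66061013 (86.5 bp downstream), and a second of 254 bp at chr7:66061306-66061559, the only snRNP site past 200 bp (651.5 bp). These lay 1686.5 and 2429.5 bp from the most 5′ annotated start of Snrpa1. Snrpb2 had a site of 591 bp at chr2:143062865-143063455, centred 29 bp downstream. Sf3a2 carried sites of 487 bp (chr10:80798054-80798540, 99 bp downstream) and 217 bp (chr10:80798717-80798933, 93 bp downstream of another TSS), both also at Plekhj1 and the first nearer to a TSS of that gene. Sf3b3 carried sites of 285 bp (chr8:110846515-110846799, 70 bp downstream) and 209 bp (chr8:110846891-110847099, at -208 bp), both nearer to a TSS of Cog4, and Sf3b4 had a site of 213 bp, 172 bp downstream. The pair at Snrpa1 differed in base composition, as its middle 150 bases show with CpG in capitals, the first site holding 20 CpG in the stretch and the second 3.
Snrpa1, chr7:66060614-66060763, plus strand: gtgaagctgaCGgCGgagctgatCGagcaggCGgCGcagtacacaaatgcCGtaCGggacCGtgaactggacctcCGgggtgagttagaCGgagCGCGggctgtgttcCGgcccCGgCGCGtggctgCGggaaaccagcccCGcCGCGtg
Snrpa1, chr7:66061357-66061506, plus strand: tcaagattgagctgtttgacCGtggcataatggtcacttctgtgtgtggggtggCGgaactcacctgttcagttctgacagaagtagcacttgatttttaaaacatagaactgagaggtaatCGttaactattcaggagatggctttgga

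The ETS consensus CCGGAAG, bound by factors such as GABPA, was counted in the sites of each class. It was found, on either strand, in 7 of 13 snRNP sites (53.8%), those of Sf3a3, Sf3b3 (upstream site, nearer to a TSS of Cog4), Sf3b4, Snrpb, Snrpb2, Snrpd1 and Snrpe, against 19.97% of sites of other protein-coding genes. Only 2 of 18 hnRNP sites held it (11.1%), at Hnrnpab and Hnrnpf, along with 3 of 17 Rbm sites (Rbm15b, Rbm34, Rbm45), 3 of 10 Prpf sites (Prpf18, Prpf31, Prpf6) and 1 of 6 SR sites (Srsf11). Position moved with this count. At other protein-coding genes the motif was in 31.9% of sites centred within 100 bp of the TSS and in 9.79% of sites more than 200 bp downstream; within 100 bp it was held by 5 of 10 snRNP sites, 3 of 6 Prpf sites, 1 of 2 SR sites and 2 of 9 Rbm sites, so the higher share of snRNP sites over Prpf and SR sites was not present there. Of the hnRNP sites past 200 bp, 1 of 11 held it. The part of position in the difference between the classes was not tested further, and the motif was singled out after the counts had been seen. Windows of at most 30 bases around the matches of Snrpb2, Sf3a3, Sf3b3 and Snrpe are shown, with the ETS letters (CCGGAAG or, read on the other strand, CTTCCGG) in capitals.
Snrpb2, chr2:143063030-143063059, plus strand: ttggccgccctCTTCCGGcgcggggaagct
Snrpb2, chr2:143063049-143063078, plus strand: gcggggaagctCTTCCGGtattagtttcaa
Sf3a3, chr4:124714760-124714789, plus strand: cccccaagacaCTTCCGGgacacgcggaac
Sf3b3, chr8:110847015-110847044, minus strand: tcccggtgggcgCTTCCGGgcttgcgaggt
Snrpe, chr1:133610257-133610280, minus strand: ttgCTTCCGGAAGtcgctttccga
The Sf3a3 match lay across the TSS, between -16 and 13 bp as printed, and the Snrpe window reached the edge of the site and held overlapping matches on both strands. The Snrpb2 windows spanned -101 to -72 and -82 to -53 bp.

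The same motif was counted in RefSeq promoter sequences (250 bases before to 50 after the start, GRCm38.p6), which could be matched for 88 of the 106 genes. It was present in 5 of 7 snRNP promoters with a site (71.4%) and also in 5 of 9 without one (55.6%, namely Sf3a1, Sf3b2, Sf3b6, Snrpc and Snrpg), against 12.3% of all 16522 protein-coding promoters. Over all classes it was in 31.1% of 45 promoters with a site and 20.9% of 43 without. In windows of 100 bp on either side of the start these shares were 22.2% and 20.9%, so that the difference nearly closed. CTCGCGAG, the consensus of ZBTB33 and BANP, was in 5 of 45 promoters with a site (11.1%) and 1 of 43 without (2.33%), against 1.35% of all. The YY1 letters AAGATGGC were in 11.1% and 2.33%, against 3.26%. CRE (TGACGT) was in 26.7% and 23.3%, against 8.94%, and so was more common in splicing gene promoters with or without a site. GGGCGG (SP) was in 60.0% and 60.5%, against 48.0%, CCAAT (NFY) in 44.4% and 48.8%, against 38.8%, and CACGTG (E-box) in 8.89% and 16.3%, against 8.12%. TATAAA, the TATA box, was in 11.1% and 14.0%, against 12.9%, TGANTCA (AP-1) in 4.44% and 4.65%, against 7.04%, and GCATGCGC (NRF1) in 0 of 45 (3 counts of the 45, the limit that a count of 0 allows, would be 6.67%) and in 4.65%, against 3.76%. Nearly all members have a CpG island, and among protein-coding genes with an island the shares were 61.9% for SP, 38.3% for NFY, 7.48% for TATA, 4.84% for AP-1, 15.9% for ETS, 10.9% for CRE, 4.02% for YY1, 1.80% for ZBTB33, 4.99% for NRF1 and 9.90% for the E-box. Against these the SP share of the members was not higher. Other protein-coding genes with a site had ETS in 24.1%, CRE in 13.6% and SP in 64.7%. For YY1 they had 6.37% with and 2.72% without a site, and for ZBTB33 2.85% and 1.06%, the same direction as in the members. Both strands were searched for every motif, and a match is a run of letters, not evidence of binding.

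**Figure D3:**
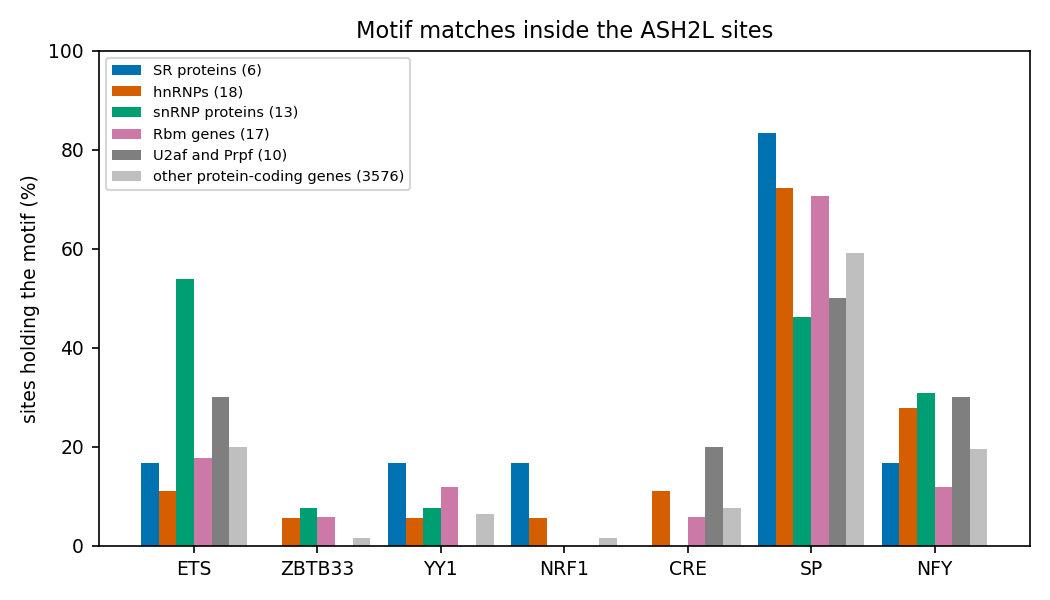
Share of ASH2L sites (%, vertical axis) that hold a match to each of 7 motifs on either strand, for the sites of each splicing class and for sites of other protein-coding genes (light grey, 3576 pairs of gene and site; the legend gives the number for each group). The ETS bar of the snRNP sites stands at 53.8% beside 19.97% for other genes and 11.1% for hnRNP sites, and the SP bars are high in every class.

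Of the SR protein genes, Srsf3, Srsf4, Srsf5, Srsf6, Srsf10 and Srsf11 had a site, and Srsf1, Srsf2, Srsf7, Srsf9 and Srsf12 had none. The first 2 of the latter encode the longest studied SR proteins, and the site nearest to Srsf2 was 7874.5 bp away. Srsf11 had the widest SR site, 627 bp at chr3:158031322-158031948, centred at -64 bp from the nearest TSS and 5004 bp from the most 5′ start of the gene. Srsf10, whose product represses splicing when dephosphorylated, followed with 482 bp at chr4:135856131-135856612, centred 239.5 bp downstream in an intron. The others were at or near the 200-bp minimum of the list, that is Srsf4 (200 bp, 108.5 bp downstream), Srsf5 (200 bp, -386.5 bp), Srsf3 (226 bp, 148.5 bp) and Srsf6 (227 bp, chr2:162931642-162931868, 94 bp). Leaving out sites of the minimum width removed Srsf4 and Srsf5 and left 4 of 11 (36.4%, against 12.9% of all protein-coding genes). SR sites had the highest median GC content of the classes (72.6%) and a median width of 226.5 bp. From coding-transcript TSSs 4 of 6 sites were more than 200 bp downstream, from any TSS 1 of 6. The Srsf11 site held ETS matches and an extended NRF1 match, and the Srsf10 site an AAGATGGC match, shown in capitals.
Srsf11, chr3:158031773-158031802, minus strand: actggacgcgtaCTTCCGGgatatgggcgc
Srsf11, chr3:158031756-158031785, minus strand: gggatatggGCGCATGCGCgggcgggcgtg
Srsf10, chr4:135856370-135856399, plus strand: ggggcggggcgAAGATGGCggggcccgcgc

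Of the 39 Rbm genes, those with a site were Rbm6, Rbm7, Rbm15b, Rbm17, Rbm22, Rbm25, Rbm26, Rbm27, Rbm33, Rbm34, Rbm39, Rbm43, Rbm45, Rbm47 and Rbm48. Rbm22 works at the catalytic centre of the spliceosome, Rbm17 and Rbm39 take part in 3′ splice site recognition, Rbm25 is tied to the U1 snRNP, Rbm48 to the minor spliceosome, Rbm7 to the nuclear exosome and Rbm15b to RNA methylation. Among the 24 without a site were Rbm5 and Rbm10, the relatives of Rbm6, and Rbm15, the relative of Rbm15b. Rbm11, Rbm20, Rbm24, Rbm31y, Rbm44 and Rbm46, which are known for restricted expression in muscle, germ line or brain, also had none, a number too small to set against the 14.0% of all protein-coding genes. This group was formed after the sites had been seen, so its count is a description only. The 4 X-linked members and the Y-linked one had no site either. They too are too few to set against the 14.0%, and no share was counted over all genes of these chromosomes. Rbm3, Rbm4, Rbm4b, Rbm8a, Rbm8a2, Rbm12, Rbm12b1, Rbm12b2, Rbm14, Rbm18, Rbm19, Rbm28, Rbm38, Rbm41 and Rbm42 made up the rest.

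Rbm39 had the widest Rbm site, 691 bp at chr2:156179568-156180258, which was also the best centred of all members, 1 bp upstream of a TSS. Rbm33 followed with 632 bp at chr5:28317057-28317688 (170.5 bp downstream), and the Rbm25 site of 536 bp (chr12:83631976-83632511) was centred at -8.5 bp from its nearest TSS and 1007.5 bp from the gene start. The Rbm47 site, 230 bp at chr5:66150706-66150935, was in the 5′ UTR at an internal TSS, with its centre 22297.5 bp from the gene start, the largest such distance among member sites. Rbm15b had sites of 351 bp (chr9:106886680-106887030, 573 bp downstream) and 203 bp (chr9:106886293-106886495), the second 775 bp upstream of an internal TSS and 1034 bp from the gene start, both in the coding exon; the first had the highest GC content of all sites (80.6%). Rbm43 had a 5′ UTR site of 214 bp (chr2:51934823-51935036, 77.5 bp downstream) and an intronic one of 200 bp (chr2:51934155-51934354, 389.5 bp downstream) with a single CpG. The other Rbm sites ranged from 200 bp (Rbm34) to 515 bp (Rbm22). Over the class the median width was 327 bp and the median offset 78.5 bp, 9 of 17 sites were within 100 bp of a TSS and 2 were more than 200 bp downstream. The stretch of the Rbm39 site below (CpG in capitals) held 20 CpG, and an upstream window of the same site held the ZBTB33 consensus in capitals.
Rbm39, chr2:156179737-156179886, minus strand: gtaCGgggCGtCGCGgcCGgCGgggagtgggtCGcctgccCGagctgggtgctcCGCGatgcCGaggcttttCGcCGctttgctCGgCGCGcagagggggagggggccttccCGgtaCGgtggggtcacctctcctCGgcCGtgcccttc
Rbm39, chr2:156180223-156180252, minus strand: cggggcagtttCTCGCGAGagcccgtgctt
Besides Rbm39, that consensus was inside the sites of Hnrnpk and Sf3a2, 3 of 64 (4.69%) against 1.62% at other genes.

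Among the Prpf genes with a site were Prpf4, Prpf4b, Prpf6, Prpf8, Prpf18, Prpf31, Prpf38b and Prpf39, and Prpf3, Prpf19, Prpf38a and Prpf40b had none. Prpf8, the scaffold of the catalytic core, had a 218-bp site 88.5 bp downstream of the TSS in the 5′ UTR. Among the tri-snRNP genes, Prpf6 had a site of 280 bp (chr2:181601170-181601449) at -6.5 bp from an internal TSS, centred 9441.5 bp from the gene start, Prpf31 one of 312 bp (chr7:3629794-3630105) at -35.5 bp between the gene and Tfpt, and Prpf4 one of 200 bp at -491.5 bp, nearer to its neighbour Cdc26. Prpf39 had the widest Prpf site (335 bp, chr12:65036418-65036752, 219 bp downstream). Prpf sites had the smallest median offset, -18.5 bp, with 6 of 10 centres upstream, compared with 2 of 18 for hnRNP sites. The direction turned with the TSS set, since the median was 34 bp from coding-transcript TSSs and 130.5 bp from the gene start, where snRNP sites had 130.0 bp. The Prpf31 site held an ETS match, printed here in capitals.
Prpf31, chr7:3630073-3630102, plus strand: agaagggatggCCGGAAGccaagctactgg

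**Figure D4:**
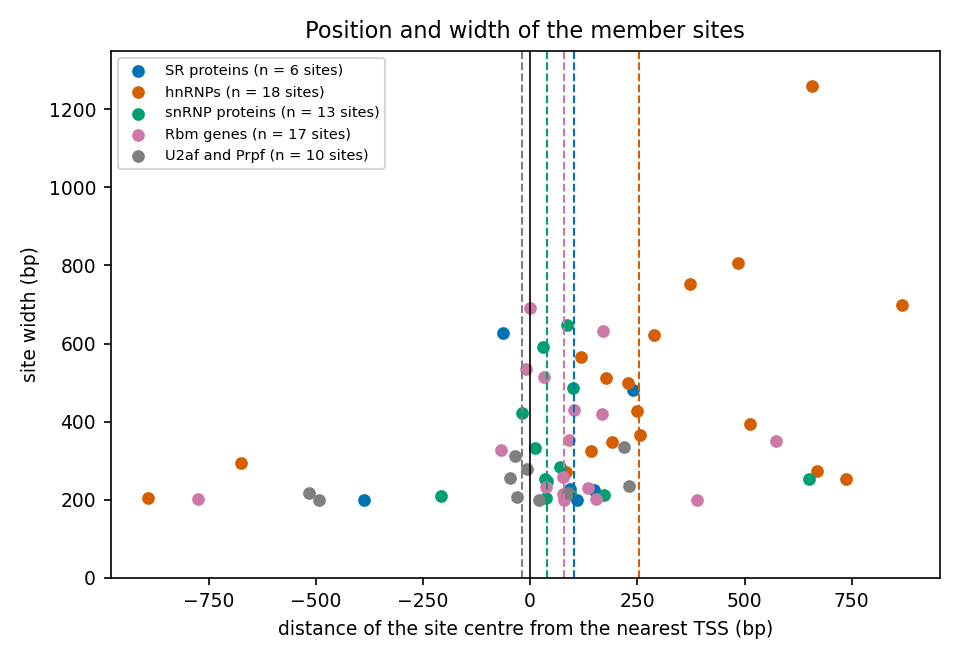
Width of each member site (bp, vertical axis) against the distance of its centre from the nearest TSS (bp, horizontal axis, negative upstream), coloured by class; dashed lines mark the class medians, from -18.5 bp (Prpf) to 253 bp (hnRNP). The 1260-bp site of Hnrnpa0 stands alone at the top, and the sites wider than 700 bp are all from hnRNP genes.

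Across all classes, 48 of the 64 sites were centred downstream of the TSS (75.0%, 63.2% to 84.0%; other genes 61.2%), and 38 of 64 spanned a TSS (59.4%, other genes 53.3%). By annotation 21 centres lay in introns, 18 in 5′ UTRs, 12 in coding exons, 7 outside the gene, 5 in exons of non-coding transcripts and 1 in a 3′ UTR. In 56 of 64 sites the closest TSS of any gene belonged to the splicing gene, and 39 had no other gene within 1 kb. A divergent TSS within 1 kb was annotated for 25 of the 54 genes that had a site (46.3%) and for 21 of the 52 that had none (40.4%), compared with 36.7% and 15.2% of all protein-coding genes, so that within the splicing genes the shares with and without a site were closer than in the genome. With protein-coding partners only, the shares of the splicing genes were 31.5% and 21.2%. With a divergent TSS within 500 bp they were 38.9% and 40.4%, so that the order turned. Such partners included the heterochromatin protein genes Cbx5 at Hnrnpa1 and Cbx3 at Hnrnpa2b1. The number of annotated TSSs, which gives a gene more chances of a site, had a median of 5 in members with a site and 5 in those without, and of 5 and 3 in other protein-coding genes with and without a site. The part of TSS number in the higher share of the members was not tested.

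CpG islands were built from 200-bp windows whose GC content exceeded 50% and whose CpG count exceeded 0.6 of that predicted from their C and G content. Passing windows whose starts lay at most 200 bp apart were joined into 1 island. The joined run was not tested again, and island lengths are lengths of these runs. All 54 genes with a site had an island within 1 kb of a TSS, and so did 51 of the 52 without (98.1%), the exception being Sf3b5, a small subunit of SF3B. Presence of an island therefore did not separate the genes. Among island genes, 51.4% of the splicing genes had a site, against 19.0% of all. Of the 64 sites 60 had a GC content over 50%. The exceptions were the sites of Hnrnpd and Prpf4, the second site of Snrpa1 and the second of Rbm43.

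The length of the island differed between classes. hnRNP genes with a site had islands with a median of 1941 bp (interquartile range 1682 to 2371), and 13 of the 14 were at least 1500 bp long, from Hnrnpab (1590 bp) to Hnrnpa2b1 (2585 bp), with Hnrnpa1 (975 bp) as the exception. The 6 hnRNP genes without a site had a median of 1346 bp and ranged from 1020 to 1889 bp, which overlaps the former range. In snRNP genes the medians were 913 bp with and 1053 bp without a site, in Rbm genes 1022 and 908 bp, in SR genes 1384 and 1512 bp, and in U2af and Prpf genes 818 and 1026 bp. Islands of at least 1500 bp were present at 1 of 10 snRNP genes (Sf3a2), 1 of 15 Rbm genes (Rbm15b), 2 of 6 SR genes and 2 of 9 Prpf genes with a site. Other protein-coding genes had medians of 1131 bp with and 870 bp without a site. Within the hnRNP class long islands were found beside wide and narrow sites alike, for example at Hnrnpd (2090 bp, site of 295 bp) and Hnrnph1 (1986 bp, site of 367 bp), while Hnrnpa3 had a site of 753 bp and an island of 1599 bp. The part of island length in the difference between classes was not tested.

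**Figure D5:**
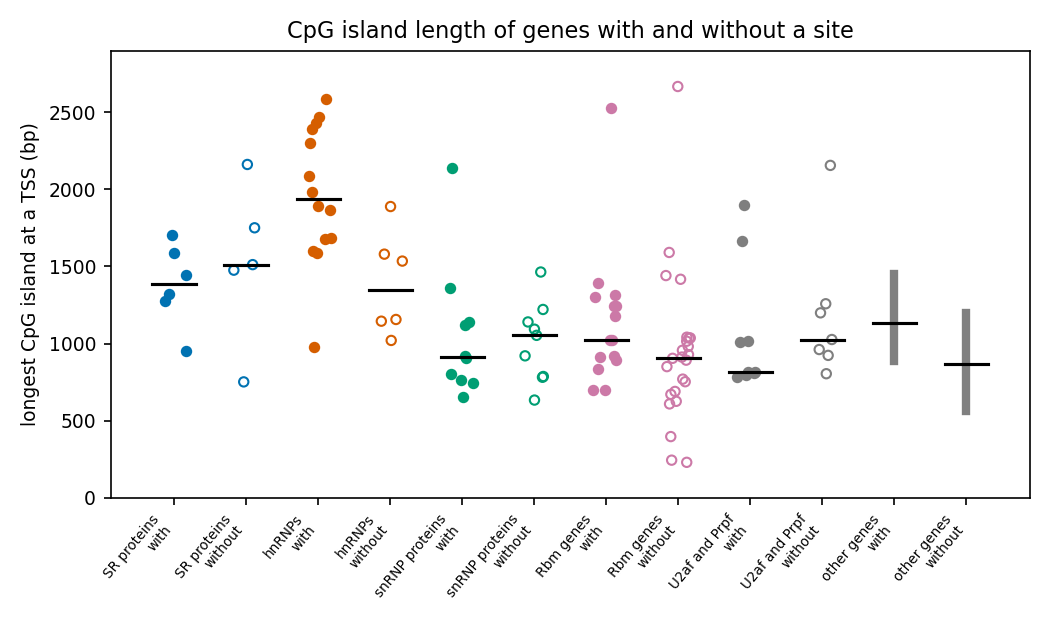
Length of the longest CpG island within 1 kb of a TSS (bp, vertical axis) for each splicing gene with a site (filled) and without one (open), by class; horizontal lines are medians, and for other protein-coding genes the grey bars give the interquartile range. The filled hnRNP points lie above 1500 bp apart from Hnrnpa1, whereas in the SR, snRNP and Prpf columns the median of genes with a site is below that of genes without.

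Further splicing genes with other symbols were taken as 6 lists, in which 61 of 133 genes (45.9%, 37.6% to 54.3%) had a promoter site. Among other snRNP proteins these were 10 of 20 (Snrnp27, Snrnp70, Snrnp200, Ddx23, Txnl4a, Sart1, Phf5a, Dhx15, Pdcd7, Zcrb1). Snrnp70 encodes another U1-specific protein, and Phf5a sits with Sf3b1 in the branch point pocket. The Prpf19 complex, helicases and step factors had 13 of 25 (Isy1, Aqr, Bud31, Cwc22, Cwc27, Dhx16, Dhx38, Slu7, Cdc40, Smu1, Ik, Wbp4, Snw1), the widest at Cwc27 (899 bp). Lsm proteins, which include the ring on U6, had 3 of 10 (Lsm1, Lsm2, Lsm5; 30.0%, 10.8% to 60.3%), an interval that includes the 14.0% of all genes. SR-related and SR-modifying genes had 10 of 25 (Tra2a, Srrm1, Pnn, Rnps1, Srek1, Scaf8, Scaf11, Luc7l, Rsrc1, Thrap3), and none of the kinases Clk1, Clk2, Clk3, Clk4, Srpk1 and Srpk2 was among them. These kinases are too few to set against the 14.0% of all genes. Other regulators had 21 of 39 (among them Ptbp2, Ptbp3, Pcbp1, Pcbp2, Raly, Celf2, Mbnl1, Mbnl2, Rbfox2, Qk, Khsrp, Fubp1, Fubp3, Elavl1, Tia1, Tardbp, Ewsr1, Taf15, Sfpq, Rbms1), and Ptbp1 had none. The exon junction and export list had 4 of 14 (Magoh, Magohb, Alyref, Ddx39b; 28.6%, 11.7% to 54.7%). The listed THO genes were all without a site, and they are also too few to set against the 14.0%.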

How the data were processed

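The authors made 4 ASH2L ChIP-seq libraries and 4 inputs from iMEF cells. Reads were trimmed with Trim Galore, aligned to mm10 with BWA, filtered with SAMtools, merged over replicates with Picard, and narrow peaks were called with MACS2, in versions not given in the sources used here. The deposited list gives genomic positions only, with no count or score per site or sample. Whether peaks were called per sample or on merged replicates before the list was made is not visible in it, and weak and strong sites count alike. The study also names a list of sites changed after dTAG, which was not used here.

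Of the 6444 sites, 6428 on the 21 assembled chromosomes were used. Starts were read as counted from 0 and are printed counted from 1. TSSs came from GENCODE mouse release 21, which is older than the release the authors used. A promoter site was called for all 21938 protein-coding genes, and the shares, medians and intervals of the splicing genes are shown beside those of all or of the other protein-coding genes. No test was run, since genes and sites are not replicates. The members and the lists were chosen with earlier results of these data known. The protein groups inside the classes were named after the sites had been seen. Genes with a site are named, apart from items that are not reported here. Coordinates were given for the 2 widest sites and the 2 sites nearest a TSS in each class, for genes with 2 sites and for sites more than 1 kb from the gene start, with the exception of Snrpd1. Sequence stretches and windows were read from GRCm38.p6 for up to 12 genes of the RefSeq promoter table, the widest sites of each class first, and those of Sf3a3, Sf3b3 and Snrpe were added after the motif counts were seen. Stretches were kept free of UTR bases in GENCODE and RefSeq. Alternatives changed the window, the TSS set, the sites and genes counted, the island definition, the divergent partners and the motif window. Site calling was tested on simulated data. Python 3.11.15, NumPy 2.4.6, pandas 2.3.3, SciPy 1.17.1, pysam 0.24.0 and matplotlib 3.10.9 were used.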

Additional observations from a re-analysis of the deposited data

How the results depend on the processing

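Of 71 alternatives to 23 results, 65 stayed close to the reported value (a count within 1.5 times, a share within its interval, a median within the interquartile range), 6 moved outside it and 0 reversed. The number of splicing genes with a site ranged from 43 to 54 of those counted, the lowest without genes that share every site. With the gene start as the only TSS it was 45 of 106 (42.5%, against 12.3% of all protein-coding genes), the median offset was 227 bp and the downstream share 86.3%. With protein-coding partners only, the divergent share was 31.5% with and 21.2% without a site. For a divergent TSS within 500 bp it was 38.9% and 40.4%, so that the order of these shares turned. Under a stricter island definition (at least 500 bp, GC over 55%, observed to expected CpG over 0.65, all changed together) the island share of genes without a site was 88.5%. In windows of 100 bp on either side of the start, AP-1 letters were in 0% of promoters with a site and 0% of those without, and TATA letters in 11.1% and 4.65%, so that the order of the TATA shares turned. The order also turned for CRE, with 22.2% and 23.3%. ETS was in 22.2% and 20.9%, so that its difference nearly closed. YY1 was in 8.89% and 4.65%, and ZBTB33 in 8.89% and 0%. NFY was in 31.1% and 51.2%, against 28.4% of all protein-coding promoters. hnRNP genes with a site numbered 11 of 20 within 500 bp and 10 of 20 with the gene start only, beside 9 and 8 of 16 U2af and Prpf genes. The cause of these shifts was not tested beyond the construction of each alternative. No paired analysis was possible because the list has no value per sample, and for the same reason leaving out a replicate and a stricter peak score were not run. The list does not show depth or signal, so a gene without a listed site cannot be told apart from one with signal under the calling threshold.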
